A study of Mus musculus with 40 samples.

Results

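The NADPH oxidase genes Nox4, Cybb, Cyba, Ncf1, Ncf4 and Rac2 were followed in RNA from the renal cortex of 40 male mice on the C57BL/6J background. They were taken by gene symbol, which gave 6 of the 55401 genes counted, and all 6 had counts in every library. The mice were heterozygous for the Ins2-Akita mutation, which misfolds insulin in the beta cell and causes diabetes, or were wild type (WT) littermates without diabetes, and each library came from 1 animal. From 6 to 22 weeks of age they were gavaged in 1 of 2 arms. In the ethanol arm, Akita and WT mice received 10% ethanol in water or MitoGamide, a mitochondria-targeted scavenger of dicarbonyls such as methylglyoxal, at 10 mg/kg daily. In the water arm, they received water or MitoQ, a mitochondria-targeted quinone antioxidant whose dose is not given in the sources used here. This made 8 groups of 5 mice. The mutation is present in every cell, so that effects of diabetes and of the mutation itself cannot be told apart, and only males were studied.

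NADPH oxidases pass electrons from NADPH across a membrane to oxygen and so make superoxide or hydrogen peroxide. Nox4 encodes the catalytic subunit that is abundant in kidney tubules, works without cytosolic activators and releases mainly hydrogen peroxide, and Cybb encodes NOX2, the catalytic subunit of phagocytes. Both need the small membrane subunit p22phox, encoded by Cyba. The phagocyte enzyme is silent until cytosolic proteins join it, among them the organizer p47phox (Ncf1), p40phox (Ncf4) and the blood cell GTPase RAC2 (Rac2). In diabetic kidneys these enzymes have long been studied as a source of oxidants outside the respiratory chain.

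The 2 catalytic subunits and p22phox differ in the sequence around their transcription starts. RefSeq windows of 300 bases (250 before to 50 after the start, GRCm38.p6, gene strand, 5′ to 3′) were available for 4 of the 6 genes, and 3 are shown, those of both catalytic subunits and of the membrane subunit they share. Capitals mark GGGCGG, the GC box, or GAGGAA, the core bound by the myeloid factor PU.1, read on either strand. The Nox4 window is chr7:87246399-87246698 on the plus strand, that of Cyba is chr8:122432891-122433190 on the minus strand and that of Cybb is chrX:9469275-9469574 on the minus strand.
Nox4: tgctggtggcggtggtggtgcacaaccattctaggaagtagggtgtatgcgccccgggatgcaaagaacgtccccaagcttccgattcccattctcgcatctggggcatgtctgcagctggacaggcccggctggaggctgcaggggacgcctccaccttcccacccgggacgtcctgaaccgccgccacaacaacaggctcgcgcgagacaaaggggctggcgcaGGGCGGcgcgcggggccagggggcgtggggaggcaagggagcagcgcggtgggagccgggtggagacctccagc
Cyba: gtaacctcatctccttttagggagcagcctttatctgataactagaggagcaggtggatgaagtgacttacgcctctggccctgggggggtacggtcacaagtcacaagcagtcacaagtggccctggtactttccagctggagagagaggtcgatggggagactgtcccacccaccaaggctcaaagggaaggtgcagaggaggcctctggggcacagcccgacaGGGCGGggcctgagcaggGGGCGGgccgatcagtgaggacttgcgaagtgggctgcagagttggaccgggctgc
Cybb: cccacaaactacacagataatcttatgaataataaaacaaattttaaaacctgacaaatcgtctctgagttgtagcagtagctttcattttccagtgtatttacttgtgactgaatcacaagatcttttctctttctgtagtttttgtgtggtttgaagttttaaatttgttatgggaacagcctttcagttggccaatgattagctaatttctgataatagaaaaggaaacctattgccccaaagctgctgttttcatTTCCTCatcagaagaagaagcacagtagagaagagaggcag
GC content was 68.3% for Nox4, 60.7% for Cyba and 35.3% for Cybb, against a median of 52.7% over 32851 windows. The Nox4 window held 1 GGGCGG, 24 bases before the start, and that of Cyba held 2, at 24 and 6 bases before it. The Cybb window held no GGGCGG, but 1 GAGGAA, read as TTCCTC 9 bases after the start, and 1 CCAAT 56 bases before it. The Ncf1 window (chr5:134229576-134229875, minus strand) held 1 GGGCGG on the opposite strand, 42 bases before the start. GGGCGG occurs in 35.7%, GAGGAA in 28.3% and CCAAT in 37.4% of all windows, on either strand. TATAA (24.9% of windows) and TGACNNNGC, the antioxidant response element (12.4%), were in none of the 4. The motifs were searched as letters, and CCAAT does not overlap the other matches in the Cybb window.

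Total estimated counts per library ranged from 9106654 to 24321424. The ribosomal depletion left mt-Rnr2, a mitochondrial ribosomal RNA, at between 7.46% and 31.8% of the counts, and all 4 libraries over 25% were in the water arm (Akita on water replicates 2 and 5, WT on water replicate 3 and WT on MitoQ replicate 3). Its share also moved with genotype in the ethanol arm, with 12.5% to 13.7% in WT and 13.2% to 18.6% in Akita mice on vehicle, and 14.7% to 17.1% in WT and 17.7% to 22.4% in Akita mice on MitoGamide. In the water arm its median was 15.6% in WT and 22.2% in Akita mice on water and 17.5% and 19.8% on MitoQ, with overlapping ranges. Fold changes that use the water arm were also computed without these 4 libraries, and the correlations were computed on all libraries of an arm. Levels are given as CPM, counts scaled to library size by TMM over the 40 libraries, and log2 fold changes and adjusted p-values are from edgeR's quasi-likelihood test over all genes whose mean count was 10 or more, with an adjusted p under 0.05 taken as a call. Proximal tubule markers (8 genes) summed to between 8046 and 16129 CPM and macrophage markers (12 genes) to between 96.5 and 161. Neutrophil markers (7 genes) summed to between 0.986 and 11.1, and their defining gene Ly6g was at 0 in 36 of 40 libraries and at 1 count in the rest, while Csf3r and Cxcr2 of the same list had counts in all 40.

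Between the members, levels per kilobase of exon over the 40 libraries spanned from Cyba, with a mean of 121 CPM per kb, and Nox4, with 38.0, down to Ncf4 with 0.277. The phagocyte genes Cybb, Rac2 and Ncf1 lay between, at 1.18, 0.725 and 0.516 CPM per kb. The cortex therefore held far more RNA of the tubular catalytic subunit and its partner p22phox than of the phagocyte parts. Counts ranged from 879 to 11146 per library for Nox4, from 415 to 4130 for Cyba and from 28 to 258 for Cybb. Ncf1 (10 to 68 counts), Rac2 (12 to 94) and Ncf4 (2 to 18) rest on few reads, so counting error is a larger part of their values. Ncf1 (GRCm38 chr5:134220053-134229625) shares 408 exonic bases with Gtf2ird2 on the other strand, and the counting is not stated to use strand, so their reads may be mixed.

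**Figure D1:**
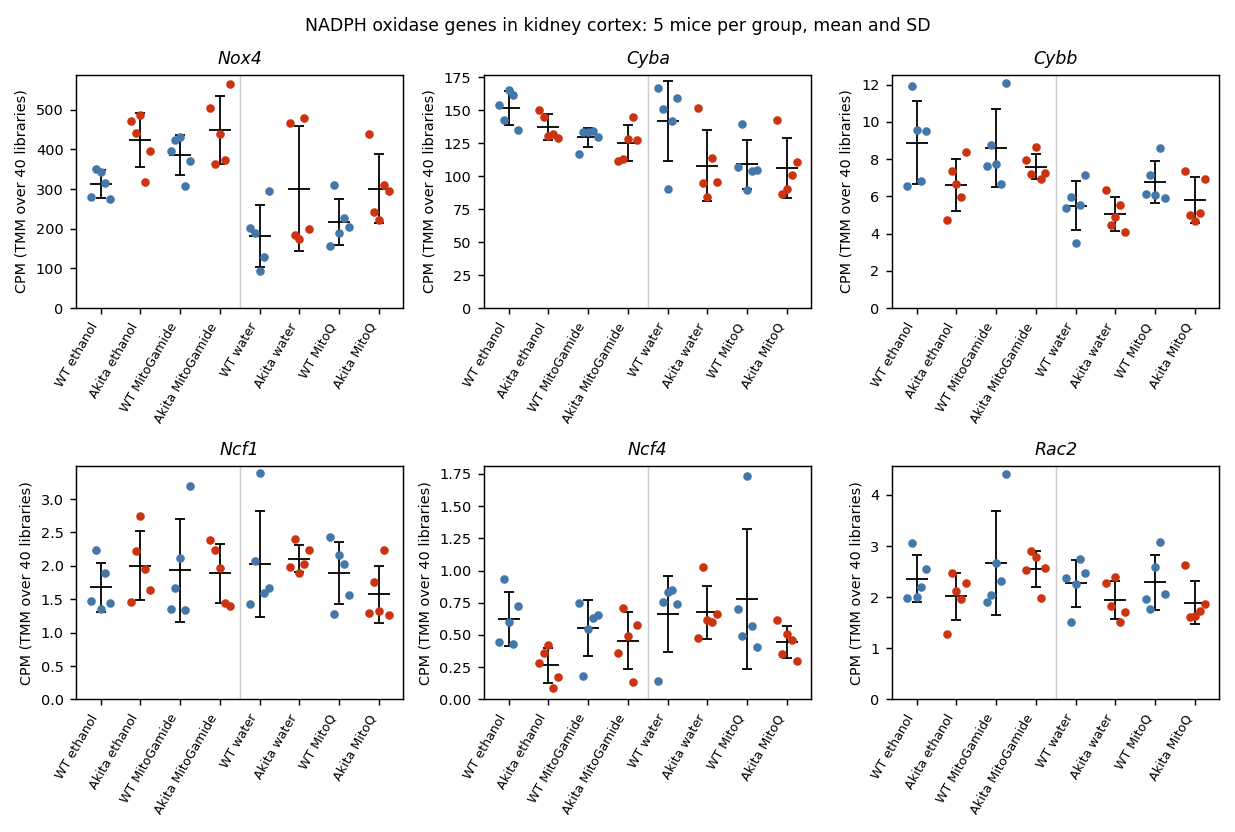
CPM (y axis, TMM over 40 libraries, starting at 0) of each oxidase gene in the 8 groups (x axis, blue WT, red Akita), 1 point per mouse, with the mean (bar) and SD (whiskers, n = 5). Nox4 ranges from 94.1 to 565 CPM and is spread most widely in Akita mice on water, while Ncf4 never exceeds 1.73 CPM.

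Nox4 (ENSMUSG00000030562.17, chr7:87246096-87398710) was higher in Akita than in WT mice. In the ethanol vehicle groups the 5 WT mice had 279, 350.3, 343, 315 and 275 CPM (replicates 1 to 5). The 5 Akita mice had 471, 442, 488, 318 and 397 CPM. Akita replicate 4 lay within the WT range and the other 4 lay above it. Replicate 4 also had an mt-Rnr2 share (13.2%) within the WT range of 12.5% to 13.7%. The other 4 had 14.2% to 18.6%, and the part of this share in the Nox4 values was not tested. The means were 312 ± 34.7 in WT and 423 ± 68.1 in Akita mice (SD, n = 5), a ratio of 1.35, with a log2 fold change of 0.45 (SE 0.12, adjusted p = 0.0167, edgeR). Nox4 was the 1 member called of 5 tested, where 16.4% of all 17747 genes tested were called and 8.18% were called higher. Dropping any 1 of the 10 libraries kept the call (adjusted p between 0.00209 and 0.0464, edgeR), but not when all 40 libraries shared 1 estimate of spread (0.44, adjusted p = 0.441, edgeR).

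With MitoGamide, the WT mice had 395, 425, 432, 307 and 369.8 CPM of Nox4. The Akita mice had 504, 362, 439.9, 373 and 565 CPM. The groups overlapped, with 3 Akita mice above all WT mice, and the difference was not called (0.25, SE 0.13, adjusted p = 0.222, edgeR; 0 members called against 14.3% of all genes). On water, WT mice had 202, 189, 94.1, 129.9 and 296 CPM and Akita mice 466, 183, 174, 479 and 200.0 CPM. Akita replicates 1 and 4 were above every WT mouse, whereas replicates 2, 3 and 5 were within the WT range, and these 3 also had the higher mt-Rnr2 shares of the group (22.2% to 31.8%, against 15.1% and 19.3%). On MitoQ, WT mice had 158, 311, 190.1, 227 and 205 CPM and Akita mice 440.1, 241, 221, 309.6 and 296 CPM, and 1 Akita mouse was above all WT mice. The differences were 0.72 on water (95% interval -0.12 to 1.57, adjusted p = 0.792, edgeR) and 0.47 on MitoQ (95% interval -0.0052 to 0.94, adjusted p = 0.560, edgeR). Without the libraries over 25% mt-Rnr2 they were 0.87 and 0.42, also not called. In these last comparisons 0 members were called, against 0.552% and 0.557% of all genes. Fits that each dropped 1 library called 0.177% to 0.518% of all genes on water and 0.193% to 1.47% on MitoQ. With MitoGamide such fits called 7.44% to 16.9%. DESeq2 called 1.93% on water and 2.29% on MitoQ, and 0 members were called in any of these fits.

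In 1 fit over all 40 libraries with treatment (ethanol, MitoGamide, water or MitoQ) as a covariate, Nox4 was higher in Akita mice by 0.46 on the log2 scale (SE 0.13, 95% interval 0.20 to 0.72, adjusted p = 0.00607, edgeR). It was again the 1 member called of 5 tested, where 22.8% of 17769 genes were called and 11% were called higher. The mean of Akita mice was above that of WT mice with 4 of 4 treatments, and the call held in each of the 40 fits without 1 library. Without the 4 libraries over 25% mt-Rnr2 the difference was 0.48 (adjusted p = 0.00153, edgeR). It was 0.36 in the ethanol arm alone (adjusted p = 0.00569) and 0.60 in the water arm alone (adjusted p = 0.193, edgeR), where it was not called. In order of mean level, the groups ran from Akita on MitoGamide and Akita on ethanol (449 ± 86.5 and 423 ± 68.1 CPM) to WT on MitoQ and WT on water (218 ± 57.9 and 182 ± 77.2). Among neighbours in this order, the gap exceeded the larger SD only between WT on MitoGamide and WT on ethanol.

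Cyba (chr8:122424776-122432930), which encodes p22phox, gave no call between genotypes. On the ethanol vehicle, WT mice had 154, 143, 165, 161 and 135 CPM. Akita mice had 150.2, 145, 130.4, 132 and 129 CPM, 3 of them below every WT mouse. The difference was -0.13 (95% interval -0.28 to 0.026, adjusted p = 0.254, edgeR). It was -0.015 with MitoGamide, -0.39 on water (-0.41 without the libraries over 25% mt-Rnr2), -0.037 on MitoQ (-0.11 without them) and -0.16 over all treatments (SE 0.074, 95% interval -0.30 to -0.0062, adjusted p = 0.131, edgeR), and none of these was called. Group means ran from 152 ± 12.7 CPM in WT on ethanol to 106 ± 22.6 in Akita on MitoQ, and no gap between neighbours in this order exceeded the larger SD. The difference in response between Nox4 and Cyba was not tested.

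Cybb (chrX:9435252-9487771), the phagocyte catalytic subunit, had a lower mean in Akita than in WT mice with 4 of 4 treatments, without a call. On the ethanol vehicle, WT mice had 6.53, 11.9, 9.56, 6.83 and 9.52 CPM. Akita mice had 4.71, 7.37, 6.64, 5.97 and 8.39 CPM, all 5 below the WT median and 2 below the WT range. The difference was -0.42 (SE 0.18, 95% interval -0.81 to -0.029, adjusted p = 0.136, edgeR). It was -0.15 with MitoGamide, -0.11 on water, -0.22 on MitoQ and -0.24 over all treatments (SE 0.092, 95% interval -0.42 to -0.051, adjusted p = 0.0577, edgeR). Without the libraries over 25% mt-Rnr2 the Cybb values were -0.097 on water, -0.25 on MitoQ and -0.23 over all treatments, none called. The value over all treatments lies close to the threshold: it was called with at least 10 counts required in every library (adjusted p = 0.0295, edgeR) and in 4 of the 40 fits without 1 library, namely without Akita on water replicate 1, Akita on MitoQ replicates 1 or 5, or WT on water replicate 3. The summed level of 5 pan-leukocyte markers was also lower on the ethanol vehicle, with 20.5 to 27.4 CPM in Akita and 30.2 to 43.1 CPM in WT mice. That of 12 macrophage markers overlapped, with 99.4 to 127 CPM in Akita and 123 to 145 CPM in WT mice. Of each list 1 gene was called lower, where 8.22% of all genes were. The part of these markers in the Cybb values was not tested. In bulk cortex, fewer cells of a type and less RNA per cell cannot be told apart.

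The cytosolic parts of the phagocyte enzyme gave no call between genotypes. Ncf1, the organizer, had 1.47, 2.23, 1.36, 1.89 and 1.45 CPM in WT and 1.46, 2.22, 2.75, 1.96 and 1.63 CPM in Akita mice on ethanol. These groups overlapped (0.26, 95% interval -0.20 to 0.72, adjusted p = 0.453, edgeR), and over all treatments the difference was 0.0027 (95% interval -0.25 to 0.26). Rac2 (chr15:78559167-78572783), the GTPase that switches the phagocyte enzyme on, had 1.99, 3.06, 1.9996, 2.19 and 2.56 CPM in WT and 1.27, 2.47, 2.12, 1.96 and 2.27 CPM in Akita mice. Its ranges overlapped too, with differences of -0.22 on ethanol, -0.053 with MitoGamide, -0.22 on water, -0.25 on MitoQ and -0.19 over all treatments (95% interval -0.41 to 0.023, adjusted p = 0.207, edgeR). For Ncf1 the values with the other 3 treatments were -0.021, 0.038 and -0.24 in the same order. Without the libraries over 25% mt-Rnr2, Rac2 gave -0.14 on water and -0.22 on MitoQ, and Ncf1 gave 0.22 and -0.21, none called.

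Ncf4 (chr15:78244801-78262580), which encodes p40phox, was under the minimum of 10 counts in all comparisons of genotypes. On the ethanol vehicle its WT values were 0.448, 0.934, 0.600, 0.427 and 0.725 CPM, from 7 to 18 counts. Its Akita values were 0.282, 0.361, 0.424, 0.0911 and 0.175 CPM, from 2 to 7 counts. The Akita and WT values did not overlap, which made Ncf4 1 of 6 members without overlap. Of the genes tested, which leave out Ncf4 and other genes under the minimum, 12.7% had none. With no filter on low counts the difference was -1.25 (adjusted p = 0.0722, edgeR), and over all treatments it was -0.51 (adjusted p = 0.138, edgeR), neither of them called. With the other 3 treatments the Ncf4 ranges of both genotypes overlapped. Of the genes tested, again without Ncf4, 12.8% (MitoGamide), 2.51% (water) and 2.85% (MitoQ) had groups without overlap. The Ncf4 means were 0.554 ± 0.218 and 0.456 ± 0.219 CPM with MitoGamide, 0.663 ± 0.294 and 0.677 ± 0.207 on water and 0.780 ± 0.542 and 0.447 ± 0.126 on MitoQ (WT first, SD, n = 5).

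**Figure D2:**
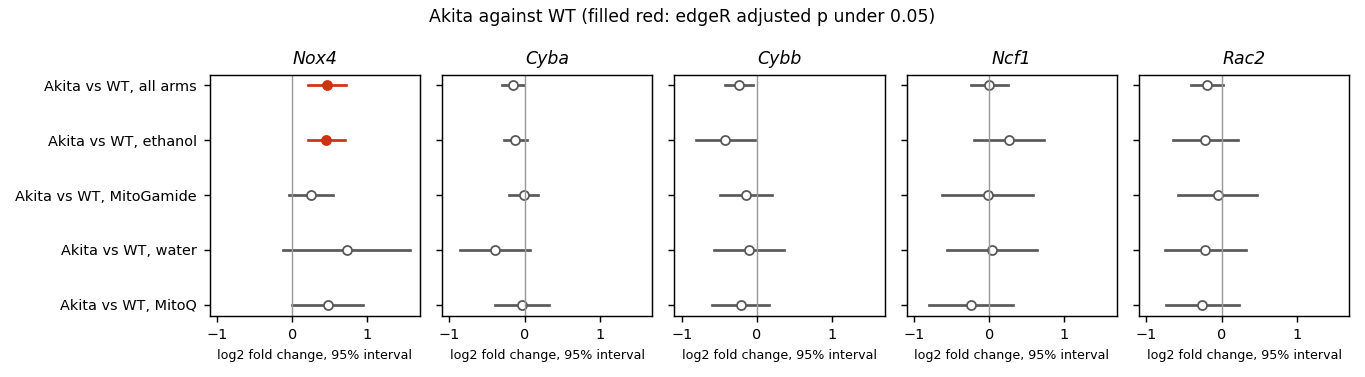
Log2 fold change (x axis) of Akita against WT mice for the 5 oxidase genes tested, with each treatment and over all 4 treatments (rows, the latter named all arms), with 95% intervals, where filled red points have an adjusted p under 0.05 in edgeR's quasi-likelihood test. Nox4 is called on ethanol (0.45) and over all treatments (0.46), and the other intervals belong to differences that were not called.

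Of 13 further oxidase subunits and partners, 5 were tested over all treatments and 0 were called by edgeR, 1 with an unadjusted p under 0.05, where 22.8% of all genes were called and 33.4% had such a p. The latter was the GTPase gene Rac3 (0.41, adjusted p = 0.0562), followed by Poldip2, whose product binds p22phox (0.11). The 8 not tested, among them the catalytic subunits Nox1, Nox3, Duox1 and Duox2, were under the count minimum. Of 9 genes that act upstream of the phagocyte enzyme, 2 were lower in Akita mice, namely the kinase gene Prkcb (-0.43, adjusted p = 0.00421) and Dock2, an activator of Rac in leukocytes (-0.41, adjusted p = 0.0383, edgeR). Over all genes 11.8% were called lower. Their list had a median of -0.13, against -0.022 over all genes tested. Of 4 genes that remove superoxide and hydrogen peroxide, the cytosolic dismutase gene Sod1 was lower (-0.40, adjusted p = 0.0106, edgeR), and Sod3 gave -0.19 (adjusted p = 0.0737).

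Markers of cell types were called in several lists, where 11% of all genes were called higher and 11.8% lower. Over all treatments, 3 of 12 macrophage markers were lower in Akita mice (Csf1r -0.71, Fcgr1 -0.57, Adgre1 -0.43) and 9 had a negative value, as did 2 of 5 pan-leukocyte markers called lower (Ptprc -0.56, Laptm5 -0.34) and 5 of 5 with a negative value. Of 2 neutrophil markers tested, Csf3r gave -0.48 and Cxcr2 -0.26, neither called, and 0 of 1 B cell (Jchain -0.19) and 0 of 2 T cell markers (Lck -0.20, Cd3d -0.094) were called. Of 8 proximal tubule markers, 2 were lower (Slc34a1 -0.29, Lrp2 -0.38) and 4 had a positive value, with a median of 0.030. Of 5 podocyte markers 3 were higher (among them Nphs1 0.47, Synpo 0.29), of 6 distal markers 2 were higher and 1 lower (Aqp2 0.98, Scnn1g 0.53, Umod -0.50), of 5 endothelial markers 2 were higher and 1 lower (Cdh5 0.28, Pecam1 0.27, Emcn -0.22), and of 6 fibroblast and mesangial markers 1 was higher (Pdgfra 0.34) and Acta2 gave 0.29 without a call. Of 4 fat markers 0 were tested, and of 4 adrenal markers 1 was tested and not called (Star 0.14). The part of these markers in the values of the oxidase genes was not tested.

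MitoGamide left the oxidase genes without a call in either genotype. In Akita mice, 0 of 5 members tested were called, where 1.26% of 17051 genes were. Of the 5, 0 had an unadjusted p under 0.05 in edgeR, where 20.9% of all genes did. Nox4 gave 0.091 (95% interval -0.22 to 0.40), Cyba -0.13 (-0.31 to 0.064) and Cybb 0.21 (-0.11 to 0.54). For the cytosolic parts, Rac2 gave 0.35 (-0.076 to 0.79) and Ncf1 -0.059 (-0.55 to 0.44). Fits that each dropped 1 library called 0% to 4.67% of all genes, and DESeq2 called 5.99% of them with 0 members. These Akita vehicle libraries are the same as those in the comparison of genotypes, so both sets of values share them. Among the 9 upstream genes, 9 had a positive value and 1 was called, Rap1a (0.40, adjusted p = 0.0264, edgeR), which encodes a small GTPase found with the phagocyte enzyme. The Rap1a call held in 3 of 10 fits that dropped 1 library, those without Akita on MitoGamide replicates 1, 3 or 5, with values of 0.38 to 0.43 (adjusted p between 0.0158 and 0.0860, edgeR), and was lost with the replicate block, which called 0 of all genes. Markers of other cells had positive values too, in 10 of 11 macrophage (median 0.32, 0 called), 5 of 5 endothelial (0.59, 1 called), 6 of 6 fibroblast and mesangial (0.40, 0 called) and 5 of 5 podocyte genes (0.22, 0 called), and 7 of 8 proximal tubule genes had negative ones (-0.12, 0 called), against a median of -0.0021 over all genes. The mt-Rnr2 share was 17.7% to 22.4% with MitoGamide and 13.2% to 18.6% without. The part of these in the values of the oxidase and upstream genes was not tested.

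In WT mice given MitoGamide, the Cyba values were 117, 133, 133, 134 and 129.8 CPM, all below the 154, 143, 165, 161 and 135 CPM of WT mice on ethanol. Cyba was the 1 member of 6 whose groups did not overlap, against 2.27% of all genes, and its difference was -0.23 (SE 0.068, adjusted p = 0.310, edgeR). Nox4 went the other way, by 0.30 (SE 0.10, adjusted p = 0.339, edgeR), with 4 of 5 MitoGamide mice above every vehicle mouse. Neither was called, and edgeR called 0 of all 17395 genes (0%), although 1841 had an unadjusted p under 0.05 and DESeq2 called 73. Cybb gave -0.049, Ncf1 0.23, Rac2 0.20 and Ncf4 -0.15, all with intervals that include 0. The mt-Rnr2 share was 14.7% to 17.1% with MitoGamide and 12.5% to 13.7% without, and its part in these values was not tested.

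MitoQ gave no call among the members either, and edgeR called 0 of all genes (0%) in both genotypes, with 363 in Akita and 575 in WT mice at an unadjusted p under 0.05 and 0 of these among the members. DESeq2 called 0 and 2 genes, with 0 members. In Akita mice Nox4 differed by 0.0057 (95% interval -0.71 to 0.72), Cybb by 0.19 and Cyba by -0.022. Without the 2 Akita water libraries over 25% mt-Rnr2, the Nox4 value became -0.30, that of Cybb 0.064 and that of Cyba -0.13. Ncf1 gave -0.41 (-0.89 to 0.074) and Rac2 -0.037 (-0.53 to 0.46). In WT mice the values were 0.26 for Nox4 (-0.38 to 0.90), -0.38 for Cyba (-0.79 to 0.029), 0.30 for Cybb (-0.14 to 0.75), -0.13 for Ncf1 and 0.0083 for Rac2, and Nox4 and Cyba gave 0.17 and -0.42 without WT on MitoQ replicate 3 and WT on water replicate 3. Leaving out 1 library gave between 0.091 and 0.52 for Nox4 in WT mice. The intervals for Nox4 are wider with MitoQ than with MitoGamide. MitoQ and MitoGamide were given in different vehicles and were not compared.

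**Figure D3:**
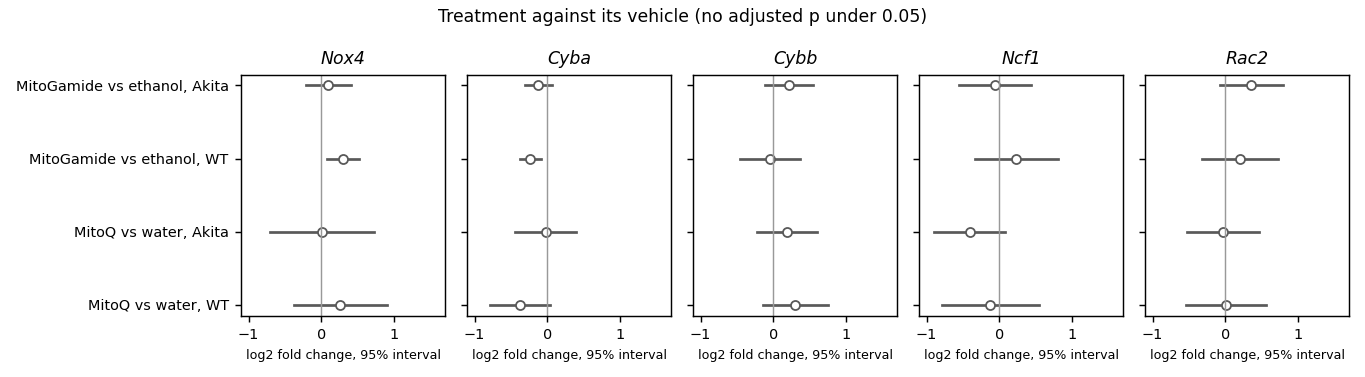
Log2 fold change (x axis) of MitoGamide against ethanol and of MitoQ against water in Akita and WT mice (rows) for the 5 oxidase genes tested in all of them, with 95% intervals from edgeR. No difference has an adjusted p under 0.05, and the intervals of Nox4 are widest for MitoQ (-0.71 to 0.72 in Akita mice).

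The ethanol and water vehicles were given in separate arms, and whether these were run or sequenced together is not given in the sources used here, so that vehicle and arm cannot be told apart. In WT mice Nox4 was at 312 ± 34.7 CPM on ethanol and 182 ± 77.2 on water (SD, n = 5), with only WT on water replicate 5 above the lowest ethanol mouse (0.79, SE 0.26, adjusted p = 0.149, edgeR). Cybb was at 8.87 ± 2.23 and 5.50 ± 1.31 CPM (0.70, SE 0.22, adjusted p = 0.148, edgeR). Neither was called, and 0 of all genes were (0%), with 4959 at an unadjusted p under 0.05 and 724 called by DESeq2. Without WT on water replicate 3, over 25% mt-Rnr2, Nox4 gave 0.62 and Cybb 0.58. Both were called without WT on water replicate 5 (Nox4 1.04, adjusted p = 0.0163, and Cybb 0.83, adjusted p = 0.0239, edgeR), a fit that called 28.6% of all genes. Cybb was also called in the fit of all 40 libraries (adjusted p = 0.0301, edgeR), which called 8.82%. In this comparison 8 of 8 proximal tubule (median 0.38), 10 of 12 macrophage (0.37), 5 of 5 pan-leukocyte (0.46) and 5 of 5 endothelial markers (0.37) had positive values and 5 of 5 podocyte markers negative ones (-0.64), 0 of them called, against a median of -0.044 over all genes. In Akita mice 0 members were called, against 12.7% of all genes, with 0.51 for Nox4 (95% interval -0.14 to 1.16), 0.38 for Cybb (-0.010 to 0.76) and 0.36 for Cyba (0.032 to 0.69). Without Akita on water replicates 2 and 5, both over 25% mt-Rnr2, these values became 0.20, 0.25 and 0.25. Cyba was called without Akita on water replicate 1 (0.52, adjusted p = 0.0107, edgeR), a fit that called 36.2% of all genes. Here 8 of 8 proximal tubule markers had positive values (median 0.37, 0 called), as had 8 of 11 macrophage (0.25, 0 called), 4 of 5 pan-leukocyte (0.28, 0 called) and 5 of 5 endothelial markers (0.25, 0 called), and 5 of 5 podocyte markers had negative ones (-0.39, 2 called), against -0.020 over all genes, and the part of these markers in the values of the oxidase genes was not tested in either genotype. Ncf4 had lower values in every Akita mouse on ethanol than in any on water. It was under the count minimum here, and 10.6% of the genes tested had groups without overlap.

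No difference of an effect between genotypes or vehicles was called for a member, nor for any of all genes (0%) in the 3 interaction tests of edgeR, and DESeq2 called 0, 0 and 2 genes for MitoGamide, MitoQ and vehicle, with 0 members. Members had an unadjusted p under 0.05 in 0 of them, and all genes did in 8.32% for MitoGamide, 1.14% for MitoQ and 4.25% for vehicle. For Nox4 the interaction terms were -0.21 for MitoGamide (95% interval -0.60 to 0.17), -0.26 for MitoQ (-1.24 to 0.73) and -0.27 for vehicle (-1.16 to 0.62). Those of Cybb were 0.26, -0.12 and -0.31, and those of Cyba 0.10, 0.35 and 0.27, in the same order. Without the libraries over 25% mt-Rnr2, the terms for MitoQ and vehicle were -0.46 and -0.42 for Nox4, -0.16 and -0.32 for Cybb and 0.29 and 0.28 for Cyba. Leaving out 1 library gave Nox4 terms between -0.52 and -0.019 for MitoQ and between -0.53 and -0.050 for vehicle. For MitoGamide they lay between -0.29 and -0.14. The effect of genotype on Nox4 was thus not shown to differ between treatments.

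Correlations were computed between deviations of log2(CPM + 0.5) from the group mean, over 15 pairs, with p from 100000 two-sided permutations within groups. Over 40 libraries, Nox4 and its partner Cyba had r = 0.74 (permutation p = 8.00e-05, adjusted p = 0.00120) and rho = 0.64 (permutation p = 0.000410, adjusted p = 0.00615), and r was 0.72 (permutation adjusted p = 0.00810) without the 2 libraries farthest from the median. In the 20 libraries of the water arm they had r = 0.84 (permutation p = 5.00e-05, adjusted p = 0.000750) and rho = 0.83 (permutation p = 9.00e-05, adjusted p = 0.00135). In the 20 of the ethanol arm they had r = 0.065 (permutation p = 0.810, adjusted p = 0.868) and rho = 0.036 (permutation p = 0.891, adjusted p = 0.954). Nox4 and Cybb had r = 0.55 (permutation p = 0.000410, adjusted p = 0.00307) and rho = 0.52 (permutation p = 0.00134, adjusted p = 0.00670) over all libraries, with r of 0.78 in the water arm and 0.19 in the ethanol arm. In the water arm Nox4, Cyba and Cybb each also had a negative r with the mt-Rnr2 share (-0.60, -0.69 and -0.62). No pair was computed without the libraries over 25% mt-Rnr2, and the part of this share in these correlations was not tested.

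Of the 6 pairs among the phagocyte genes Cybb, Ncf1, Ncf4 and Rac2, 2 were called in the ethanol arm. Cybb and Rac2 had r = 0.76 (permutation p = 0.00141, adjusted p = 0.0106) and rho = 0.76 (permutation p = 0.000490, adjusted p = 0.00735). Ncf1 and Rac2 had r = 0.77 (permutation p = 0.000930, adjusted p = 0.0106) and rho = 0.68 (permutation p = 0.00376, adjusted p = 0.0282). Without the 2 libraries farthest from the median these were 0.61 and 0.67, with permutation adjusted p of 0.189 and 0.0577, so neither was called then. In the water arm the values were 0.36 and -0.12. Over 40 libraries Cybb and Rac2 had r = 0.58 (permutation p = 0.00106, adjusted p = 0.00530) and rho = 0.54 (permutation p = 0.00124, adjusted p = 0.00670), with 0.56 (permutation adjusted p = 0.00810) without the 2 farthest. Cyba and Ncf1 had r = -0.48 (permutation p = 0.00322, adjusted p = 0.0121) and rho = -0.47 (permutation p = 0.00271, adjusted p = 0.0102), with -0.39 (permutation adjusted p = 0.0729). Cybb and Cyba had r = 0.42 (permutation p = 0.0147, adjusted p = 0.0441) and rho = 0.33 (permutation p = 0.0570, adjusted p = 0.122), with 0.33 (permutation adjusted p = 0.128), and this call was lost with a pseudocount of 2 (permutation adjusted p = 0.0520). In the water arm Cybb and Cyba had 0.78 and Cyba and Ncf1 -0.64, against -0.32 and -0.29 in the ethanol arm. The differences between arms were not tested, nor was the part of the mt-Rnr2 share in any pair. No share of called pairs over all genes is given, so whether these counts are particular to the members was not tested either.

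**Figure D4:**
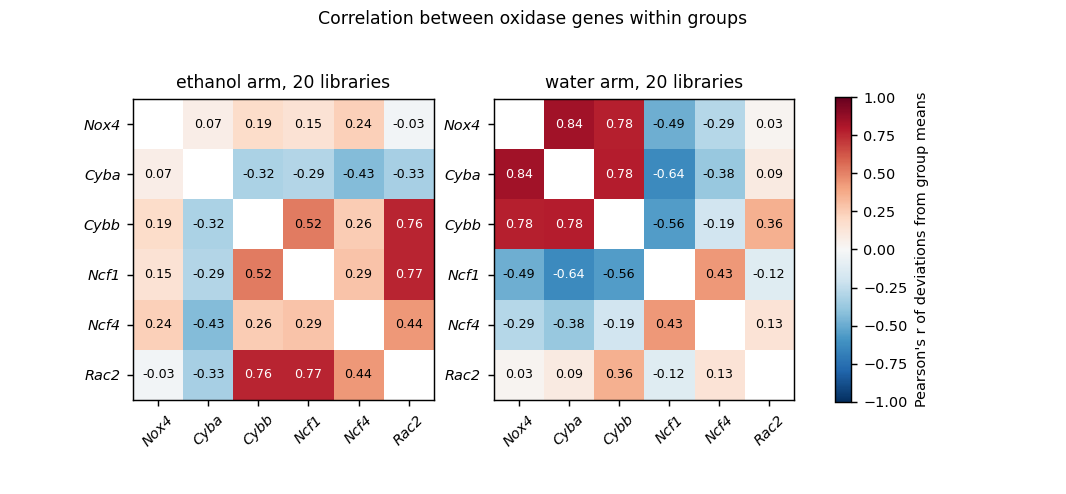
Pearson's r between deviations from the group mean for each pair of the 6 oxidase genes (rows and columns) in the 20 libraries of the ethanol arm (left) and the 20 of the water arm (right), from blue (-1) to red (1). Nox4, Cyba and Cybb are red together in the water arm (0.84, 0.78 and 0.78), and Rac2 with Cybb and Ncf1 in the ethanol arm (0.76 and 0.77). The water arm includes the 4 libraries over 25% mt-Rnr2.

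The mt-Rnr2 share of a library was set against each member within groups, in a family of 6 tests per set of libraries, and 5 were called in the water arm and 1 in the ethanol arm. In the water arm its relation to Nox4 was r = -0.60 (permutation p = 0.0208, adjusted p = 0.0250) and rho = -0.68 (permutation p = 0.00611, adjusted p = 0.00733), with -0.57 (permutation adjusted p = 0.0643) without the 2 libraries farthest from the median. For Cyba it was r = -0.69 (permutation p = 0.00255, adjusted p = 0.00510) and rho = -0.68 (permutation p = 0.00258, adjusted p = 0.00658), with -0.58 (permutation adjusted p = 0.0269), and for Cybb r = -0.62 (permutation p = 0.00753, adjusted p = 0.0113) and rho = -0.64 (permutation p = 0.00390, adjusted p = 0.00658), with -0.53 (permutation adjusted p = 0.0269). Ncf1 and Ncf4 had the opposite sign there, with r = 0.66 (permutation p = 0.00193, adjusted p = 0.00510) and rho = 0.62 (permutation p = 0.00439, adjusted p = 0.00658) and with r = 0.76 (permutation p = 0.00187, adjusted p = 0.00510) and rho = 0.67 (permutation p = 0.00295, adjusted p = 0.00658), and without the 2 farthest libraries 0.56 (permutation adjusted p = 0.00408) and 0.65 (permutation adjusted p = 0.0269). In the ethanol arm Nox4 had r = 0.67 (permutation p = 0.00717, adjusted p = 0.0430) and rho = 0.57 (permutation p = 0.0229, adjusted p = 0.137), which became 0.54 (permutation adjusted p = 0.334) without the 2 farthest. Rac2 was not called in the water arm (r = -0.27, permutation adjusted p = 0.293). In the ethanol arm the other 5 members had r between 0.064 and 0.29, with permutation adjusted p of 0.579 or more. No share of all genes called is given for these tests, so whether the counts are particular to the members was not tested. The median mt-Rnr2 share was higher with the Akita genotype in both arms, as was mean Nox4. Within groups, the share and Nox4 had r = 0.67 in the ethanol arm and -0.60 in the water arm. The part of the mt-Rnr2 share in the Nox4 difference between genotypes was not tested.

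**Figure D5:**
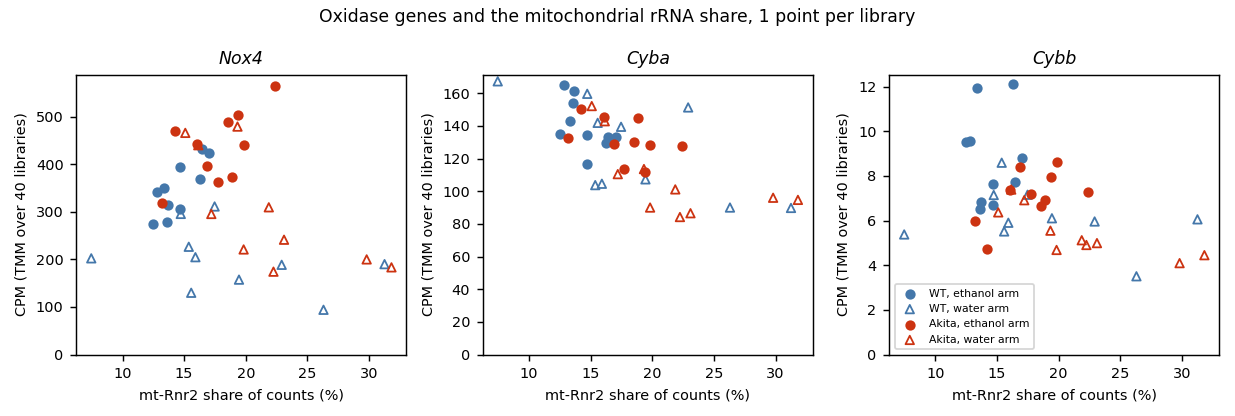
CPM (y axis, from 0) of Nox4, Cyba and Cybb against the percentage of counts in mt-Rnr2 (x axis), 1 point per library, with blue WT and red Akita, filled circles for the ethanol arm and open triangles for the water arm. The water arm spans 7.46% to 31.8% and its 4 libraries over 25% have between 89.7 and 96.0 CPM of Cyba and between 3.505 and 6.06 CPM of Cybb.

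The genes most like each member were those with the highest r of deviations over the 40 libraries, among 17764 candidates, given as a description. For Nox4 they were Cubn (0.93), the cubilin receptor of the proximal tubule, Slc7a7 (0.93), an amino acid transporter, and Enpp6 (0.92), with 0.71, 0.76 and 0.59 in the ethanol arm and 0.97, 0.95 and 0.97 in the water arm. Between genotypes Cubn gave 0.24 over all treatments (adjusted p = 0.125, edgeR), in the direction of Nox4 but without a call. Genotype values of Slc7a7 and Enpp6 are not given. For Cyba they were Bckdha (0.91), Tcn2 (0.90) and Pdzk1ip1 (0.89). For Cybb they were Mpeg1 (0.86), a pore-forming protein of macrophages, the MHC class II gene H2-Eb1 (0.81) and Clec7a (0.77), the receptor dectin-1, with 0.82, 0.80 and 0.77 in the ethanol arm and 0.90, 0.85 and 0.78 in the water arm. Rac2 was most like Pld4 (0.71), the MHC class II chaperone gene Cd74 (0.69) and Pea15a (0.69). The highest values for Ncf1 were lower, with Tm6sf1 (0.67), Pstk (0.66) and Mre11a (0.64), and those for Ncf4 were Atrx (0.75), Epb41l2 (0.73) and Nemf (0.73). The points share libraries, depth and, in the water arm, the mt-Rnr2 share.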

How the data were processed

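Total RNA from the renal cortex of individual mice was depleted of ribosomal RNA and sequenced with a directional kit. The authors trimmed reads with Skewer, mapped them with kallisto 0.46.1 (submitters' processing notes) to GENCODE mouse transcripts and summed transcripts per gene. The authors deposited these estimated counts per gene and library as whole numbers, without scaling or pooling, and they entered the tests unchanged. All 40 libraries had groups from their labels, and no 2 libraries of a group agreed within sampling noise. Gene positions are from GENCODE on GRCm38 and promoter windows from RefSeq (GRCm38.p6).

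Tests used edgeR 4.0.16 in R 4.3.3 (TMM, quasi-likelihood, genes whose mean count across the fitted libraries was 10 or more, Benjamini-Hochberg over all genes tested). Contrasts of 2 groups were fitted on their own 10 libraries, that over all treatments on 40 with treatment as covariate. Standard errors were derived from each log2 fold change and its F statistic. Alternatives were DESeq2 1.42.0, the unfiltered table, a stricter minimum of 10 counts in every library, RLE scaling, the replicate number as a block, all 40 libraries in one fit, each library left out and, for correlations, a pseudocount of 2. Chosen after seeing the data were leaving out libraries over 25% mt-Rnr2, each arm alone and Rap1a without each library. The code was tested on simulated data. The 6 genes and all lists were chosen with earlier results of these data known. Named genes are the members, the 2 genes of each list with the smallest p over all treatments and any called there, and the 3 genes most like each member, and some of these are not reported here. Cubn, Rap1a and the genes listed as under the count minimum were named after their values were seen.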

Additional observations from a re-analysis of the deposited data

Results flagged for a closer look

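Of 48 groups of 5 mice (6 genes in 8 groups), 4 held a mouse far from the other 4 by Dixon's test at the 95% level, where chance gives about 1 in 20, or 2.4 of 48. Cyba was at 117 CPM in WT on MitoGamide replicate 1, below the other mice of its group, which lay between 129.8 and 134 CPM. Ncf4 was at 0.143 CPM in WT on water replicate 1, from 2 counts, against 0.739 to 0.848 CPM in the others. Ncf4 was at 1.73 CPM in WT on MitoQ replicate 3, from 8 counts in a library over 25% mt-Rnr2, against 0.404 to 0.704 CPM. Rac2 was at 2.63 CPM in Akita on MitoQ replicate 1, against 1.62 to 1.86 CPM. No interaction of genotype with a drug or vehicle was called for a member by edgeR.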

How the results depend on the processing

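The Nox4 difference between genotypes kept its direction in every alternative run. On ethanol its call was lost in the fit of all 40 libraries, where 0 members and 4.75% of all genes were called, and over all treatments it was lost in the water arm alone, with 0 members and 4.31% of all genes called. The cause was not tested. Members called over all treatments rose to 2 with at least 10 counts in every library (27.3% of all genes), and for ethanol against water in WT mice to 1 in the fit of all 40 libraries (8.82%). Leaving out 1 library gave 1 to 2 members called over all treatments (21.3% to 24.6% of all genes), 0 to 1 for ethanol against water in Akita (0.00552% to 36.2%) and 0 to 2 in WT mice (0% to 28.6%). In no contrast did every pair of same-numbered libraries correlate over 0.1, and the main fits did not use replicate numbers as pairs. Single pairs ran from -0.50 (Akita against WT on water) to 0.71 (MitoQ against water in Akita mice). The rule fails on any 1 low pair, so it cannot show that no libraries were paired. With the replicate block, 2 members and 14.5% of all genes were called on ethanol, Cybb (-0.40, adjusted p = 0.0343, edgeR) beside Nox4, and the small values of Ncf1 and Rac2 between genotypes on MitoGamide became 0.031 and 0.010. Of the 15 correlations, 5 were called over 40 libraries, 4 with a pseudocount of 2, 3 without the 2 farthest libraries, 2 in the ethanol arm alone and 4 in the water arm alone. No share of called pairs over all genes is given beside these counts.

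Signs turned only where the difference was not called. Without the libraries over 25% mt-Rnr2, the values were -0.30 for Nox4 with MitoQ in Akita mice, 0.13 for Ncf1 and -0.0049 for Rac2 with MitoQ in WT mice, and -0.021 for Cyba between vehicles in WT mice. Without a filter, MitoQ in Akita mice gave 0.030 for Cyba and 0.020 for Rac2. Ncf1 over all treatments was -0.0080 with at least 10 counts in every library and -0.10 in the water arm. Leaving out 1 library gave, between genotypes, -0.23 to 0.040 (Cybb) and -0.048 to 0.31 (Ncf1) on water, -0.23 to 0.019 (Cybb), -0.079 to 0.019 (Cyba), -0.13 to 0.26 (Ncf1) and -0.16 to 0.23 (Rac2) with MitoGamide, -0.16 to 0.077 (Cyba) with MitoQ and -0.025 to 0.074 (Ncf1) over all treatments. With MitoGamide it gave -0.0054 to 0.15 (Nox4) and -0.17 to 0.073 (Ncf1) in Akita mice, and -0.22 to 0.082 (Cybb), -0.055 to 0.36 (Ncf1), -0.26 to 0.025 (Ncf4) and -0.085 to 0.32 (Rac2) in WT mice. With MitoQ it gave -0.18 to 0.24 (Nox4), -0.16 to 0.14 (Cyba) and -0.19 to 0.080 (Rac2) in Akita mice, -0.24 to 0.15 (Ncf1) and -0.13 to 0.089 (Rac2) in WT mice and -0.24 to 0.010 (Cybb) for the interaction. For ethanol against water in WT mice it gave -0.021 to 0.18 (Cyba). Outside the fits that left out 1 library, 391 fold changes kept their direction and call, 10 turned sign, 3 gained a call and 2 lost it. In the fits that left out 1 library, 784 kept both, 58 turned sign and 7 gained a call. Ncf4, Ncf1 and Rac2 had the fewest counts of the members.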
